A study of Rattus norvegicus with 6 samples.

Results

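The genes described here are 9 genes that make, degrade or regulate the polyamines: Odc1, Amd1, Srm, Sms, Sat1, Oaz1, Oaz2, Azin1 and Arg2. They were taken by gene symbol from the platform annotation of the array, which gave 13 probe sets among the 31042 tested. Sms and Oaz2 had 2 probe sets each, Azin1 had 3, and the other 6 genes had 1. All 13 were kept and no filter on low signal was applied.

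Expression was measured on 6 single-colour Affymetrix arrays, 2 for each of 3 groups of cultured heart muscle cells from newborn Wistar rats aged 1 to 2 days. The control cells were untreated, the second group received phenylephrine at 50 µmol/l, and the third was stretched biaxially to 112% for 24 h. Phenylephrine stimulates α1-adrenergic receptors and makes cultured myocytes grow, and the study set it beside mechanical stretch. The protocol text of the phenylephrine samples also names endothelin-1 and angiotensin II, but their titles and the study design name phenylephrine alone. Before stretching, those cells had spent 36 h on silicone coated with collagen and a further 24 h in medium lacking serum. The surface and the serum-free period of the control and phenylephrine cells, and the duration of phenylephrine, are not stated in the sources, so these and the stretch itself cannot be told apart. RNA was pooled over several preparations, per the labels, and whether the paired arrays of a group stem from independent cultures is not stated. The p-values describe no more than the spread of these 6 samples, and that spread may be technical.

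Polyamines are small positively charged molecules that bind RNA and DNA and are needed for protein synthesis and growth. Arginase releases ornithine from arginine, ornithine decarboxylase turns it into putrescine, and aminopropyl groups from decarboxylated S-adenosylmethionine extend putrescine to spermidine and then spermine. The pathway is held in check by antizymes, which send ornithine decarboxylase to the proteasome, and by acetylation of spermidine and spermine. An antizyme inhibitor counters the antizymes and frees the enzyme. In the heart, ornithine decarboxylase activity is known to rise with hypertrophic stimuli, and much of the control of these enzymes acts on translation and protein stability, which an mRNA array does not read.

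Values are deposited log2 signals, and a difference is the difference of group means on the log2 scale with its standard error (SE) and 95% interval from limma. A change was called at a Benjamini-Hochberg adjusted p below 0.05 over all 31042 probe sets, and n = 2 arrays per group throughout. The array medians lay between 8.30 and 8.33 log2. The spike-in controls set phenylephrine replicate 2 apart, since their median there was 9.31 against 10.13 to 10.37 on the other 5 arrays, and it had the narrowest distribution, with an interquartile range of 1.70 against 1.80 to 1.92. All 8 myocyte markers were bright, the dimmest being Ttn at a mean of 13.18 log2. The 9 fibroblast markers were present too. Their mean was 11.64 and 11.68 on the control arrays, 11.09 and 11.21 with phenylephrine and 11.35 on both stretch arrays. With phenylephrine 4 of these 9 fell and 0 rose in limma, the unadjusted p being under 0.05 for 8. With stretch, limma called 0 of 9, and the unadjusted p was under 0.05 for 4. Of the other markers with phenylephrine, 2 of 6 endothelial and 1 of 7 macrophage genes fell and 2 of 6 smooth muscle and pericyte genes rose. The unadjusted p was under 0.05 for 3 genes in each of these lists. With stretch 1 of those 6 smooth muscle and pericyte genes rose (3 at an unadjusted p under 0.05). For stretch, 0 endothelial or macrophage genes were called by limma (2 and 0 at an unadjusted p under 0.05). Between stretch and phenylephrine, limma called Kdr higher with stretch (0.80) and Cnn1 lower (-1.10). In that comparison 0 myocyte, fibroblast or macrophage markers were called (0 of 8, 4 of 9 and 3 of 7 at an unadjusted p under 0.05). For endothelial and smooth muscle and pericyte genes that count was 2 of 6 and 4 of 6. All 8 myocyte markers were lower with stretch than with phenylephrine (median -0.152). Against control, 7 of 8 were higher with phenylephrine (median 0.197) and 4 of 8 with stretch (median -0.0029), with 0 called by limma (1 and 0 at an unadjusted p under 0.05). The endothelial marker means were 8.61 and 8.67 on the control arrays, 8.23 to 8.37 with phenylephrine and 8.48 to 8.53 with stretch, with Pecam1, Tek, Vwf and Emcn dimmer than the median probe set. The smooth muscle and pericyte means were 9.30 and 9.32 on the control arrays, 9.75 to 9.88 with phenylephrine and 9.64 to 9.67 with stretch. With phenylephrine the median difference of these 6 genes was -0.081, opposite in sign to the difference of the means; Cnn1 and Acta2 were the called genes. In bulk RNA, fewer cells of a type and less RNA per cell cannot be told apart, and the part of these marker shifts in the results on polyamine genes was not tested.

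Across the pathway, the only call among the 13 probe sets was the rise of Srm, the spermidine synthase gene, with phenylephrine. Its value was about as high with stretch, where it did not pass. Sat1, the acetyltransferase gene, lay higher with stretch and lower with phenylephrine, and Azin1, the antizyme inhibitor gene, lay higher with both, none of these past the threshold. Odc1 was 0.34 log2 above control with stretch and 0.17 above with phenylephrine. The antizyme gene Oaz1 differed by less than 0.1 log2 in each comparison as deposited, with the sign against control turning negative after quantile normalization.

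For stretch against control, limma called 0 of 13 member probe sets, and the unadjusted p was under 0.05 for 3 (Srm, Odc1 and Azin1 1370191_at). Over all probe sets 0.345% were called, 95 higher and 12 lower, and 280 higher and 106 lower after quantile normalization. An unadjusted p under 0.05 was found for 5.54% of all probe sets. The median member difference was 0.15, against 0.0056 over all probe sets. The arrays of stretch and control did not overlap for 9 of 13 member probe sets, against 35.9% of all probe sets. Stretch was higher without overlap for 8 of the 13, against 19.4% of all probe sets. These 8 include all 3 Azin1 probe sets, which are not independent. With 1 probe set per gene, 6 of 9 genes did not overlap and 5 of 9 were higher without overlap. For phenylephrine against control, 1 of 13 was called, against 3.6% of all probe sets. An unadjusted p under 0.05 was found for 3 members (Srm, Azin1 1370191_at and Sat1) and for 16.6% of all probe sets. The median member difference was 0.079 against 0.0060, and the arrays did not overlap for 6 of 13, against 43.6% of all probe sets. Phenylephrine was higher without overlap for 4 of the 13, against 21.5% of all probe sets. By gene these counts were 6 of 9 and 4 of 9.

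**Figure D1:**
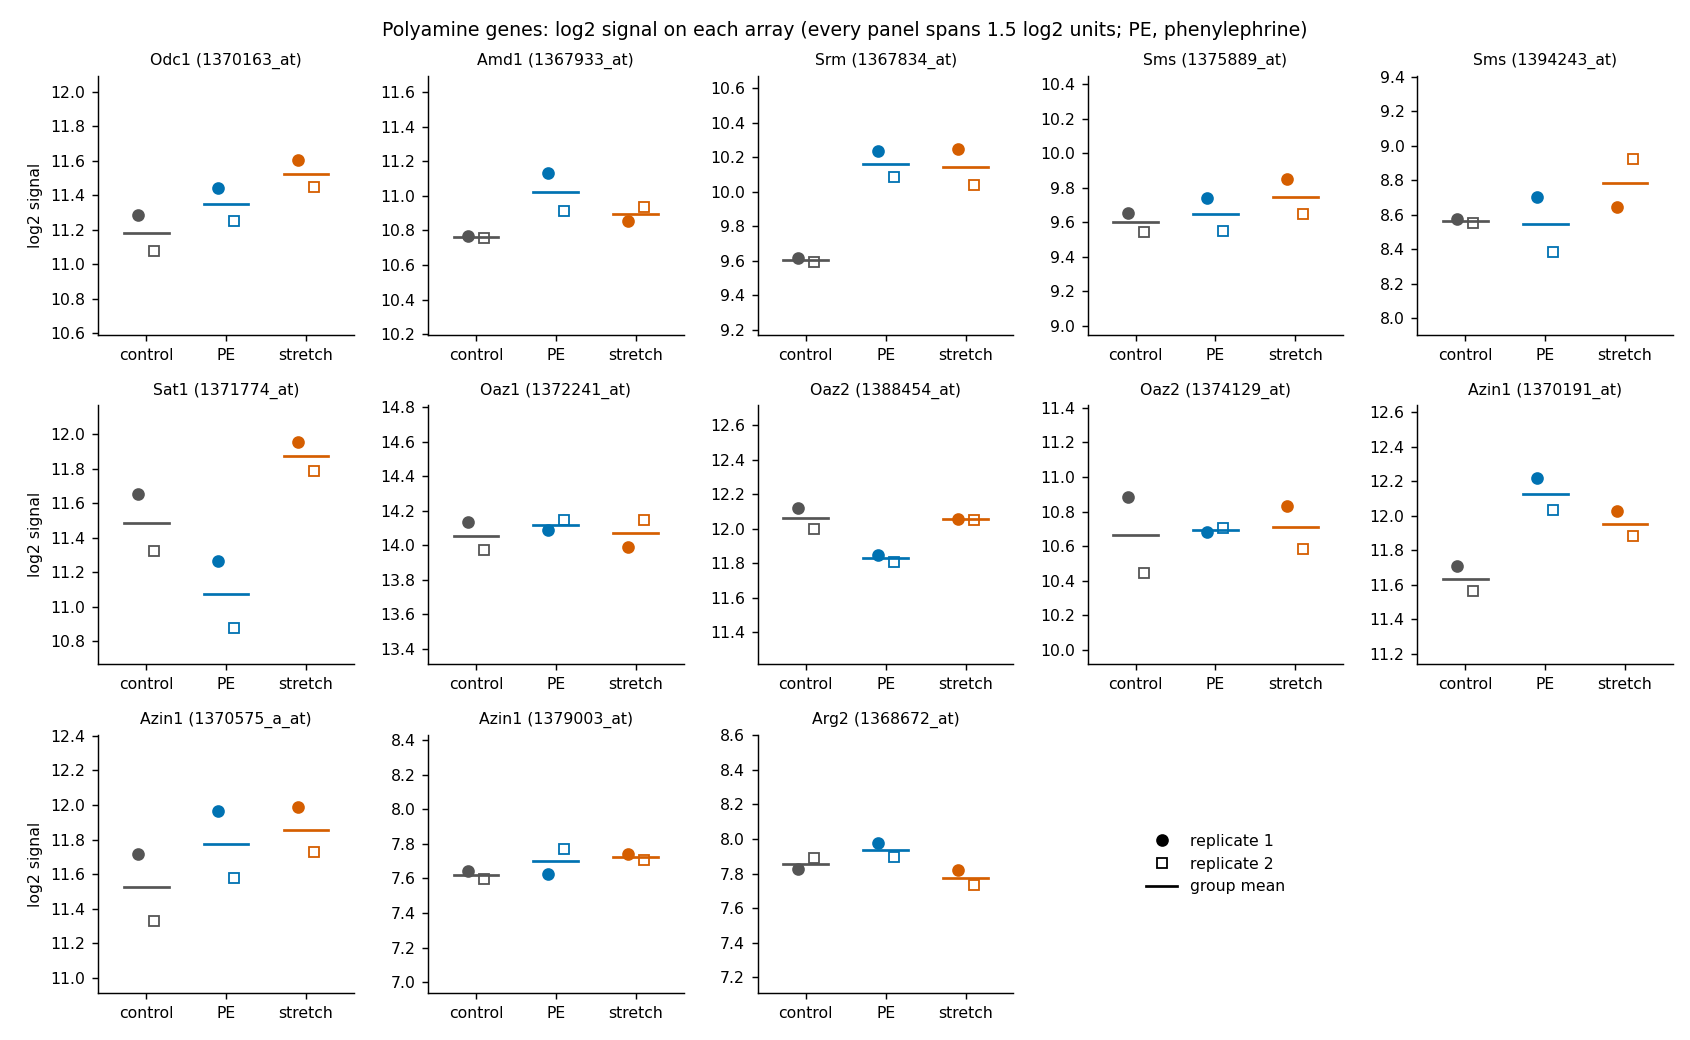
Log2 signal of the 13 member probe sets on each of the 6 arrays, with replicate 1 as a filled circle, replicate 2 as an open square and the group mean as a bar. Every panel spans the same range, and levels are not comparable between panels. Both Srm controls sit near 9.6, below all 4 treated arrays at 10.04 to 10.25, and the Sat1 arrays fall in the order phenylephrine, control, stretch.

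Ornithine enters the pathway through arginase. Arg2, the mitochondrial arginase gene (1368672_at), read 7.82 and 7.89 on the control arrays, 7.98 and 7.90 with phenylephrine and 7.82 and 7.73 with stretch. These values lay below the array medians, so the probe set was dim. Its arrays did not overlap between phenylephrine and control or between stretch and control, but the differences were 0.08 ± 0.06 (SE) and -0.08 ± 0.06 (limma adjusted p = 0.617 and 1). Set directly against phenylephrine, stretch was lower by -0.16 ± 0.06, with a 95% interval of -0.31 to -0.01 (adjusted p = 0.351).

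Odc1 encodes ornithine decarboxylase, the first and rate-limiting enzyme of the pathway. Its probe set (1370163_at) read 11.29 and 11.08 on the control arrays, 11.44 and 11.25 with phenylephrine and 11.60 and 11.45 with stretch. Both stretch arrays were above every other array, though stretch replicate 2 only just, at 11.445 against 11.443 on phenylephrine replicate 1. Phenylephrine replicate 2 lay between the controls. The difference was 0.34 ± 0.13 for stretch against control, or 1.27-fold, with a 95% interval of 0.03 to 0.65 (adjusted p = 0.802). For phenylephrine it was 0.17 ± 0.13, with an interval of -0.15 to 0.48 (adjusted p = 0.622), and it ranged from 0.06 to 0.27 with 1 array left out. Stretch against phenylephrine gave 0.18 ± 0.13, with an interval of -0.13 to 0.49 (adjusted p = 0.692). The rat RefSeq table of assembly GRCr8 lists 10 pseudogenes named after Odc1, 3 after Amd1, 2 after Sms and 2 after Oaz1. Whether these probe sets read such copies was not tested.

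The genes whose pattern over the 6 arrays was most like that of Odc1 were Sertad1, Pgam5, Spcs3, Wdr74 and Ybx3, among 14216 other named genes. Likeness was the root-mean-square distance of centred log2 values, which was 0.031, 0.033, 0.034, 0.039 and 0.040 for these 5. Pearson's r was 0.989, 0.992, 0.987, 0.989 and 0.977. The 6 points share their arrays, and in Odc1 and these 5 genes the array numbered 1 lay above that numbered 2 in every group, so the likeness is a description of these arrays.

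Amd1 encodes S-adenosylmethionine decarboxylase, which makes the aminopropyl donor. Its probe set (1367933_at) read 10.77 and 10.76 on the control arrays, 11.13 and 10.91 with phenylephrine and 10.85 and 10.94 with stretch. All 4 treated arrays were above both controls. The differences were 0.26 ± 0.12 for phenylephrine (adjusted p = 0.339) and 0.13 ± 0.12 for stretch (adjusted p = 1), and neither passed.

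Srm encodes spermidine synthase, which joins an aminopropyl group to putrescine. Its upstream sequence is shown because Srm carries the only call among the members. The 250 bases before the RefSeq start site, at chr5:164308752-164309001 on the plus strand of GRCr8, hold the E-box CACGTG, the letters bound by MYC-MAX dimers and other factors, here in capitals and beginning 173 bases before the start.

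Srm: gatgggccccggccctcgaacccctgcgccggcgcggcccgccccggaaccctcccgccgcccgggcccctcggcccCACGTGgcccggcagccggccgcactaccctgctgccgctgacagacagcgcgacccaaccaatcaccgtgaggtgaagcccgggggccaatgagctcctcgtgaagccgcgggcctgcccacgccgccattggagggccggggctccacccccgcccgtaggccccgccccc

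The probe set for Srm (1367834_at) read 9.62 and 9.60 on the control arrays, 10.24 and 10.09 with phenylephrine and 10.25 and 10.04 with stretch. The ranges of both treatments overlapped each other and neither overlapped with control. Srm rose 1.47-fold with phenylephrine, from 9.61 ± 0.02 to 10.16 ± 0.11 (SD, n = 2), a difference of 0.56 ± 0.12 (SE) with a 95% interval of 0.29 to 0.82 (limma adjusted p = 0.043). With stretch the mean was 10.14 ± 0.15 (SD, n = 2). The difference from control was 0.54 ± 0.12 with an interval of 0.27 to 0.80, and it did not pass (adjusted p = 0.188). Stretch against phenylephrine gave -0.02 ± 0.12, with an interval of -0.29 to 0.25 (adjusted p = 0.976), so the direct comparison found no difference beyond the error and does not show that the treatments act alike. The phenylephrine call was near the threshold. It was lost without control replicate 1 (0.57, adjusted p = 0.226), control replicate 2 (0.54, adjusted p = 0.312), phenylephrine replicate 1 (0.48, adjusted p = 0.0819) or phenylephrine replicate 2 (0.63, adjusted p = 0.056), and in a fit of only the 4 arrays compared (adjusted p = 0.0783).

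Promoter sequences were available in the RefSeq table for 7 of the 9 genes, all but Azin1 and Arg2. CACGTG was searched on both strands of the 250 upstream bases. It was found in Srm and Oaz1, and in 5.59% of the 33469 promoters of the table. The amino acid response letters TGATGNAA, searched in the same way, were in 0 of the 7 and in 3.4% of all promoters. No match says only that these letters are not in this window. The sites with 11 bases on each side are shown to set the Srm match beside that of Oaz1, whose match begins 234 bases before its start.

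Srm: cccctcggcccCACGTGgcccggcagcc
Oaz1: agtgacgcaaaCACGTGggggcgggact

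Oaz1 differed from control by 0.07 ± 0.10 with phenylephrine and by 0.02 ± 0.10 with stretch. Its signal lay near the top of the range, where folds can be compressed, and the difference between Srm and Oaz1 was not tested.

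Sms encodes spermine synthase, the next step after Srm. Its brighter probe set (1375889_at) read 9.65 and 9.54 on the control arrays, 9.74 and 9.55 with phenylephrine and 9.85 and 9.65 with stretch. Phenylephrine replicate 2 lay between the controls and stretch replicate 2 fell just below control replicate 1. The differences were 0.15 ± 0.12 with stretch and 0.05 ± 0.12 with phenylephrine (adjusted p = 1 and 0.903). The other Sms probe set (1394243_at) had 0.22 ± 0.13 and -0.02 ± 0.13. The rise called for the spermidine synthase gene with phenylephrine had no counterpart past the threshold in the spermine synthase gene. The difference between these genes was not tested.

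**Figure D2:**
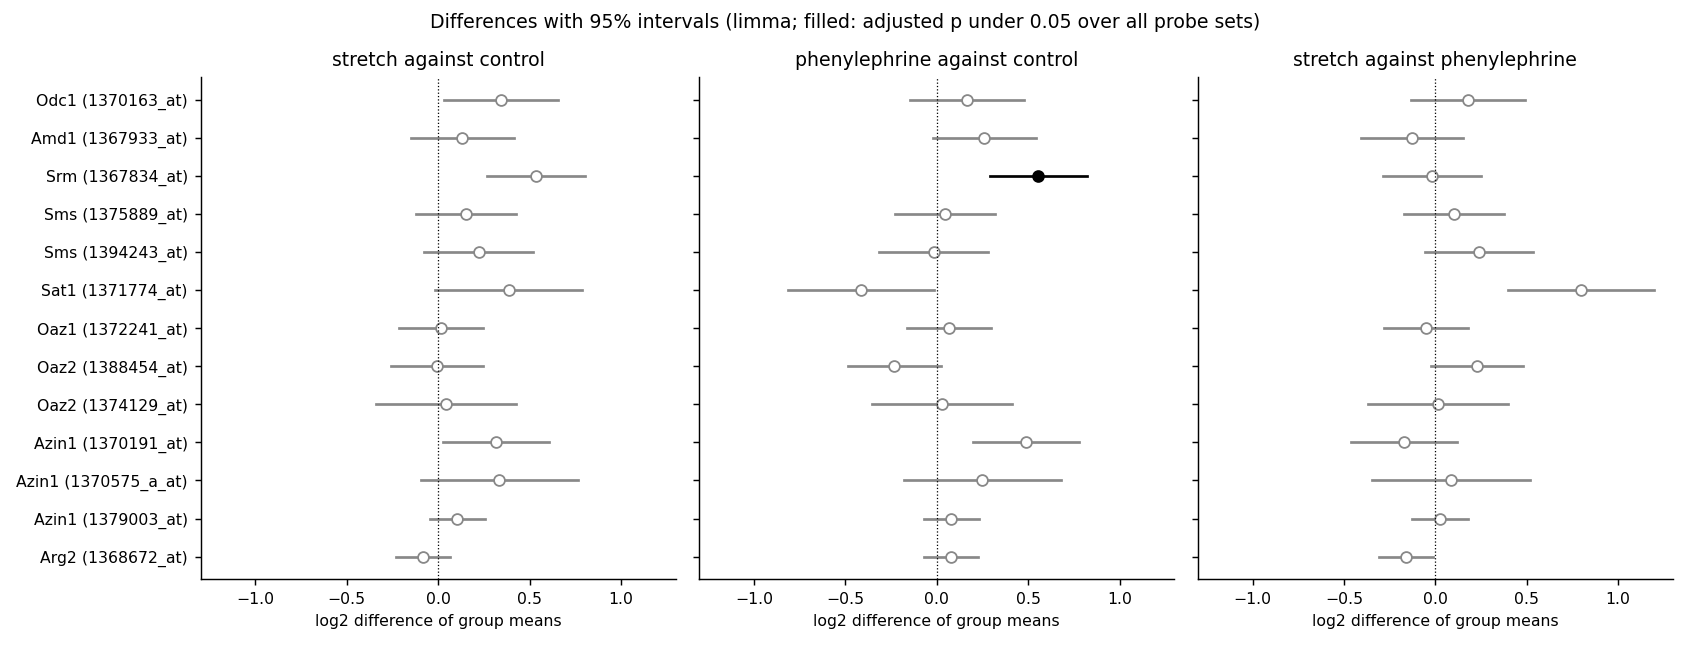
Differences of group means on the log2 scale for the 13 member probe sets in the 3 comparisons, as points with 95% intervals from limma. Only Srm with phenylephrine is filled, which marks an adjusted p under 0.05, and Sat1 has the largest value of stretch against phenylephrine, at 0.80.

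Sat1 encodes spermidine/spermine acetyltransferase, which marks polyamines for export or oxidation. Its probe set (1371774_at) read 11.65 and 11.32 on the control arrays, 11.27 and 10.88 with phenylephrine and 11.96 and 11.79 with stretch. Both stretch arrays lay above both controls and both phenylephrine arrays below them, and phenylephrine replicate 1 and control replicate 2 were 0.05 apart. The difference was 0.38 ± 0.17 for stretch (interval -0.02 to 0.79; adjusted p = 0.934) and -0.41 ± 0.17 for phenylephrine (interval -0.81 to -0.01; adjusted p = 0.285). Stretch stood above phenylephrine by 0.80 ± 0.17, or 1.74-fold, with an interval of 0.40 to 1.20, and this did not pass over all probe sets (adjusted p = 0.0845), but passed after quantile normalization (adjusted p = 0.00571). Among 31042 probe sets, the size of this difference ranked 208. In this comparison limma called 0 of 13 members, the unadjusted p was under 0.05 for 2 (Sat1 and Arg2), and the background was 1.33% called and 12.5% under that p. The arrays did not overlap for 5 of 13, against 38.8% of all probe sets, and stretch was higher without overlap for 3 of 13, against 21.6%. By gene these counts were 5 of 9 and 3 of 9. Without 1 array the Sat1 value ranged from 0.60 (phenylephrine replicate 2 left out) to 0.99 (phenylephrine replicate 1 left out). The values against control ranged from 0.22 (control replicate 2 left out) to 0.55 (control replicate 1 left out) with stretch, and from -0.61 (phenylephrine replicate 1 left out) to -0.22 (phenylephrine replicate 2 left out) with phenylephrine.

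Oaz1 and Oaz2 encode antizymes, which bind ornithine decarboxylase and lead it to degradation. Oaz1 (1372241_at) lay between 13.97 and 14.15 on all 6 arrays. The groups overlapped in every comparison. Its 95% intervals ran from -0.21 to 0.24 for stretch and from -0.16 to 0.30 for phenylephrine. The brighter Oaz2 probe set (1388454_at) read 12.12 and 12.00 on the control arrays, 11.85 and 11.81 with phenylephrine and 12.06 and 12.05 with stretch. The phenylephrine arrays were below all others, by -0.23 ± 0.11 against control (adjusted p = 0.348), and stretch differed from control by -0.01 ± 0.11. The second Oaz2 probe set (1374129_at) did not show the lower phenylephrine values, with 10.89 and 10.44 on the control arrays against 10.68 and 10.71 (difference 0.03 ± 0.17).

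Azin1 encodes antizyme inhibitor 1, a relative of ornithine decarboxylase that lacks its activity and frees the enzyme from antizyme. Its brightest probe set (1370191_at) read 11.71 and 11.56 on the control arrays, 12.22 and 12.03 with phenylephrine and 12.02 and 11.88 with stretch. The groups did not overlap, with control lowest and phenylephrine highest. The difference was 0.49 ± 0.13 with phenylephrine, or 1.40-fold (interval 0.20 to 0.78; adjusted p = 0.087), and 0.32 ± 0.13 with stretch (interval 0.03 to 0.61; adjusted p = 0.81). The second probe set (1370575_a_at) had 0.25 ± 0.19 and 0.33 ± 0.19, in an order opposite to the first. Its control arrays were 0.39 apart. The third (1379003_at) was dim, between 7.60 and 7.77, with 0.08 ± 0.07 and 0.10 ± 0.07. The mean of the 3 probe sets gave 0.27 with phenylephrine.

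Around the members, 5 lists of neighbouring genes were examined, with 1 probe set per gene. The first covers the entry of arginine and the link to proline. Of 14 measured genes of arginine and ornithine supply and use, 2 rose and 0 fell both with stretch and with phenylephrine, and the medians were -0.0013 and 0.086, against 0.0056 and 0.0060 over all probe sets. Slc7a1, the main cationic amino acid transporter gene (1368391_at), read 9.88 and 9.97 on the control arrays, 10.90 and 10.74 with phenylephrine and 10.93 and 10.93 with stretch. It rose by 1.00 ± 0.11 with stretch (limma adjusted p = 0.0144) and by 0.89 ± 0.11 with phenylephrine (adjusted p = 0.00746). Aldh18a1, which makes the precursor of proline and ornithine from glutamate (1388521_at), read 9.00 and 8.92 on the control arrays, 9.80 and 9.77 with phenylephrine and 9.61 and 9.57 with stretch. It rose by 0.63 ± 0.09 with stretch (adjusted p = 0.0417) and by 0.83 ± 0.09 with phenylephrine (adjusted p = 0.00422). Both stretch calls were lost without any 1 of the 4 arrays compared. The values then ranged from 0.96 to 1.05 for Slc7a1 (adjusted p from 0.153 to 0.226) and from 0.59 to 0.67 for Aldh18a1 (adjusted p from 0.313 to 0.565). The phenylephrine call of Slc7a1 was lost without control replicate 1 (0.85, adjusted p = 0.0886) or control replicate 2 (0.94, adjusted p = 0.0759), and that of Aldh18a1 without control replicate 2 (0.79, adjusted p = 0.066). A dimmer Slc7a1 probe set (1368392_at) had 0.62 and 0.55, not past the threshold (adjusted p = 0.15 and 0.0612). The dimmest (1387167_at), between 7.35 and 7.56, had 0.07 and 0.16 (adjusted p = 1 and 0.262). Oat, ornithine aminotransferase, which draws ornithine toward proline and glutamate, was the largest value of the list for stretch against phenylephrine, at -0.47 ± 0.13 (adjusted p = 0.17). Against control Oat had 0.57 ± 0.13 with phenylephrine (limma adjusted p = 0.0603) and 0.10 ± 0.13 with stretch. Its phenylephrine value passed after quantile normalization (adjusted p = 0.00496) and without a trend (adjusted p = 0.0352). The Oat value between the treatments passed after quantile normalization (adjusted p = 0.015) but not without a trend (adjusted p = 0.0979).

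Of 11 genes of polyamine oxidation, transport and other antizymes, limma called 0 in any comparison (1 had an unadjusted p under 0.05 with stretch, 4 with phenylephrine and 2 between the treatments). The medians were -0.038 with stretch and 0.039 with phenylephrine. The largest value against control was that of Slc3a2, the heavy chain of several amino acid transporters, which had 0.73 ± 0.12 with stretch (adjusted p = 0.0762) and 0.48 ± 0.12 with phenylephrine (adjusted p = 0.0852). It passed in both comparisons after quantile normalization (adjusted p = 0.00362 and 0.00496) and without a trend (adjusted p = 0.044 and 0.0425). Between the treatments the largest value was that of Sat2, a relative of Sat1 by name, at 0.29 ± 0.14 (adjusted p = 0.454). Sat2 lay below control with both, by -0.45 ± 0.14 with phenylephrine (limma adjusted p = 0.147) and -0.16 ± 0.14 with stretch. The phenylephrine value of Sat2 passed after quantile normalization (adjusted p = 0.00678). Of 4 genes of hypusine formation, the spermidine-derived modification of the translation factor eIF5A, limma called 0 (the unadjusted p was under 0.05 for 0 with stretch, 2 with phenylephrine and 1 between them). The medians were 0.15 and 0.095 against control. Eif5a2 had the largest values against control, at 0.25 ± 0.11 with stretch and 0.34 ± 0.11 with phenylephrine (adjusted p = 0.95 and 0.184). Of 13 genes of the methionine and S-adenosylmethionine cycle, 0 passed in limma (0, 1 and 0 at an unadjusted p under 0.05), and the medians were 0.0068 and 0.028. The largest values against control belonged to Adi1, a methionine salvage enzyme gene, at -0.21 ± 0.14 with stretch and -0.28 ± 0.14 with phenylephrine (adjusted p = 1 and 0.357).

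Odc1 is a known target of MYC, and 4 genes of that kind of regulator were read. Myc (1368308_at) read 9.22 and 9.09 on the control arrays, 9.13 and 9.03 with phenylephrine and 10.16 and 9.94 with stretch. It rose by 0.97 ± 0.11 against phenylephrine (limma adjusted p = 0.00958), a call that was lost without stretch replicate 1 (0.86, adjusted p = 0.0874). Against control it rose by 0.90 ± 0.11 with stretch (adjusted p = 0.0223) and had -0.07 ± 0.11 with phenylephrine. The stretch call was lost without any 1 of the 4 arrays compared, with values from 0.79 to 1.00 and adjusted p from 0.0624 to 0.261. Mycn, a relative of Myc (1376648_at), read 8.38 and 8.35 on the control arrays, 8.84 and 8.80 with phenylephrine and 8.47 and 8.42 with stretch. It rose by 0.46 ± 0.07 with phenylephrine (adjusted p = 0.0135) and was lower with stretch than with phenylephrine by -0.37 ± 0.07 (adjusted p = 0.0493). The first call was lost without control replicate 1 (0.47, adjusted p = 0.0964) or control replicate 2 (0.44, adjusted p = 0.132). The other was lost without any 1 of the 4 arrays compared (-0.40 to -0.35, adjusted p from 0.0833 to 0.373) and in a fit of those 4 arrays (adjusted p = 0.123). The partner gene Max and its competitor gene Mxd1 did not pass. The medians of the 4 genes were 0.034 with stretch and -0.082 with phenylephrine.

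**Figure D3:**
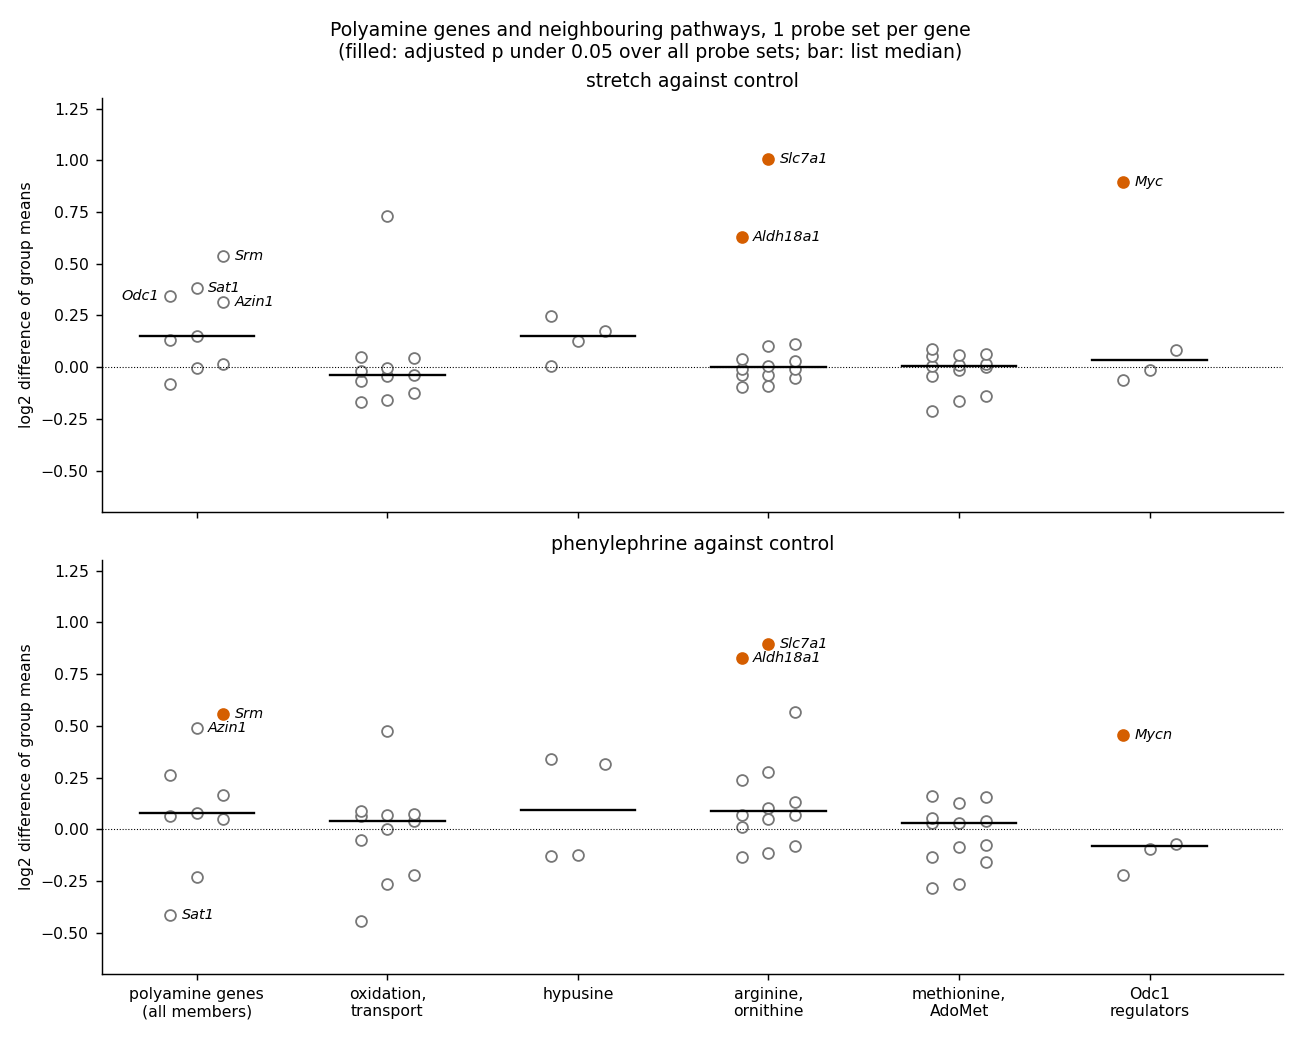
Differences from control on the log2 scale for the 9 members and 5 neighbouring lists, 1 probe set per gene, with stretch above and phenylephrine below. Filled points passed at an adjusted p under 0.05, bars are list medians, and AdoMet is S-adenosylmethionine. Slc7a1 and Aldh18a1 are filled in both panels, Myc for stretch, and Mycn and Srm for phenylephrine.

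**Figure D4:**
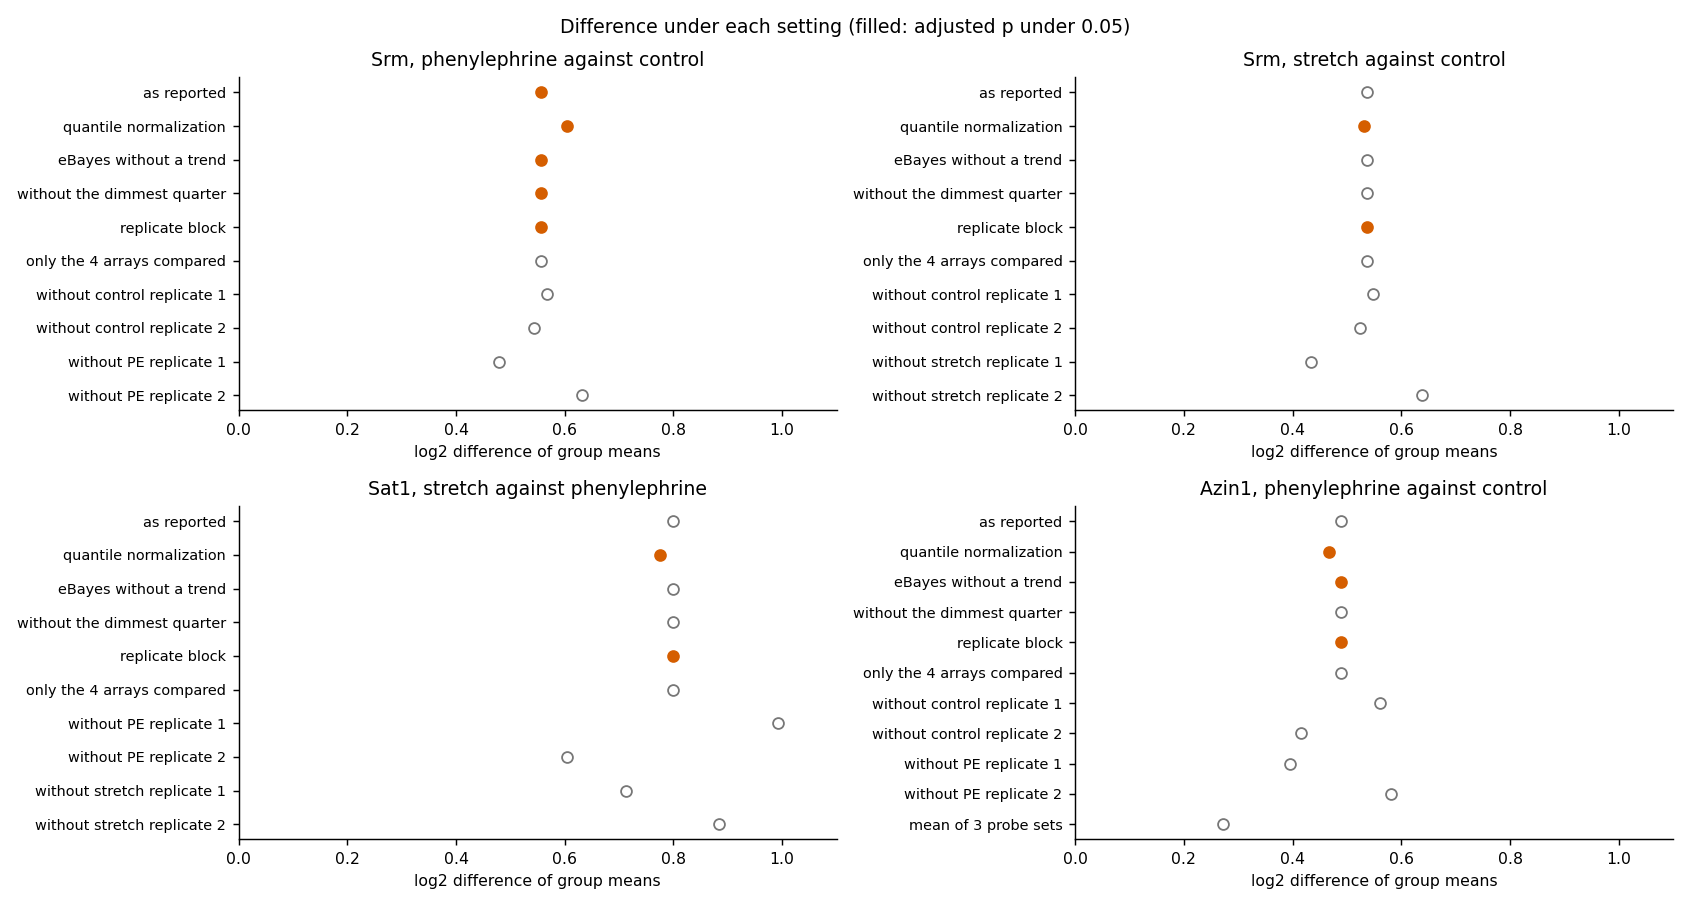
Differences on the log2 scale for Srm, Sat1 and Azin1 under each way of processing the arrays (PE, phenylephrine). Filled points had an adjusted p under 0.05. The sizes stay between 0.48 and 0.63 for Srm with phenylephrine, while calls come and go with the setting, and the mean of 3 probe sets lowers Azin1 to 0.27.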

How the data were processed

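Expression data from 6 arrays of newborn rat heart muscle cells were analysed. The values deposited by the authors are 1 number per probe set and array, taken as log2 signals because they run from about 6 to 15. The summary, background correction and normalization are not stated in the labels or the file. The array medians differed by 0.038, so the deposited scale was kept. Of 31099 probe sets, 57 array controls were left out. Symbols came from the 2016 platform annotation: 20826 probe sets had 1, 436 had several and 9780 had none. The probe set with the highest mean stands for a gene in the lists.

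All arrays entered a single limma 3.58.1 model of group means (R 4.3.3; lmFit, eBayes with a trend), which left 3 residual degrees of freedom plus 4.8 from the prior. Tests were two-sided. With 2 arrays against 2, exact permutation reaches no two-sided p below 0.333 and was not used. The fit was also run on simulated data with independent arrays and variances drawn from its own fitted prior. That run cannot show how the fit behaves where equally numbered arrays deviate together. Precision is limited by the number of arrays.

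The members and lists were chosen with earlier results of these data known. All members were named, and in each neighbouring list up to 3 called genes with the largest changes, or else the largest value. Alternatives were quantile normalization, no trend, leaving out the dimmest 25% of probe sets, the replicate number as a block, fits of the 4 arrays compared, leaving out each array, and the mean of a gene's probe sets.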

Additional observations from a re-analysis of the deposited data

Results flagged for a closer look

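Only the members and the neighbouring genes named in this report were looked at here, not every gene of the lists. For Sat1, Dohh, Arg2 and Myc the arrays of stretch and phenylephrine lay on opposite sides of the control mean. Myc was arranged like Sat1, and it passed with stretch against control (limma adjusted p = 0.0223) and between the treatments. Neither their differences from control nor those between the treatments passed as reported. Every Sat1 array with stretch lay above the control mean and every array with phenylephrine below it. Stretch minus phenylephrine was 0.80 log2 and did not pass in limma (adjusted p = 0.0845). The same was true of Dohh, a hypusine enzyme gene, with a difference of 0.25 (adjusted p = 0.374). Arg2 had the opposite arrangement, with a difference of -0.16 (adjusted p = 0.351). Ass1, Slc12a8 and Slc22a2, other genes of the neighbouring lists, were arranged like Arg2. The share of all probe sets with either arrangement was not counted. Of the genes in the 5 neighbouring lists, 2 passed the test between the treatments, namely Myc at 0.97 (limma adjusted p = 0.00958) and Mycn at -0.37 (adjusted p = 0.0493). With 2 arrays a group, no array can be tested as standing apart.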

How the results depend on the processing

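As reported, the comparison of stretch with control had 107 calls, that of phenylephrine with control 1117 and that of stretch with phenylephrine 413 over all probe sets in limma. Among the 13 members the calls were 0, 1 and 0. Quantile normalization gave 386, 2790 and 1527 calls, with 1, 3 and 1 among members: Srm with both stimuli (adjusted p = 0.0213 with stretch), Azin1 (adjusted p = 0.0048) and Sat1 (adjusted p = 0.0427) with phenylephrine, and Sat1 between the treatments (adjusted p = 0.00571). Without a trend, 2 members were called with phenylephrine, Srm and Azin1 (adjusted p = 0.0483). Fits of the 4 arrays compared gave 661 calls with phenylephrine, with 0 members, and 230 between the treatments. With 1 array left out, in which case the lone array is assumed to vary like the other groups, calls ranged from 26 to 47 with stretch, from 189 to 1249 with phenylephrine and from 51 to 473 between the treatments, and members called were 0 in each of these fits.

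The replicate block, a term for the replicate number, gave 1028, 5384 and 3734 calls, with 3, 3 and 1 among members. These were Srm, Odc1 (adjusted p = 0.0482) and Sat1 (adjusted p = 0.039) with stretch, Srm, Sat1 and Azin1 with phenylephrine, and Sat1 between the treatments (adjusted p = 0.000123). The labels do not say that equal numbers belong together. Deviations of equally numbered arrays correlated at 0.487 to 0.673 across probe sets, and replicate 1 lay above replicate 2 in all 3 groups for 7 of 13 members and 33.3% of all probe sets. With 2 numbers this does not establish a pairing.

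Differences near 0 changed sign. Quantile normalization turned Oaz1 to -0.089 with stretch and -0.060 with phenylephrine, and Oaz2 (1374129_at) to -0.026 between the treatments. The mean of its probe sets turned Oaz2 with stretch to 0.019. With 1 array left out, stretch against control ranged from -0.064 to 0.094 for Oaz1, from -0.067 to 0.057 for Oaz2 (1388454_at), from -0.18 to 0.26 for Oaz2 (1374129_at), from -0.018 to 0.22 for Oat and from -0.021 to 0.19 for Ahcy. Phenylephrine against control ranged from -0.013 to 0.15 for Oaz1, from -0.19 to 0.25 for Oaz2 (1374129_at), from -0.047 to 0.14 for Sms (1375889_at) and from -0.18 to 0.14 for Sms (1394243_at). Stretch against phenylephrine ranged from -0.12 to 0.083 for Srm, from -0.11 to 0.28 for Azin1 (1370575_a_at), from -0.046 to 0.097 for Azin1 (1379003_at), from -0.13 to 0.026 for Oaz1, from -0.11 to 0.14 for Oaz2 (1374129_at), from -0.00099 to 0.21 for Sms (1375889_at), from -0.26 to 0.079 for Eif5a2 and from -0.059 to 0.21 for Adi1. Over all alternatives, 322 member values kept their direction and side of the threshold, 5 lost the call, 11 gained it and 22 changed sign. Of the values of other named genes 253 kept both, 23 lost the call, 16 gained it and 5 changed sign. The cause of these changes was not tested. The signal over background is unknown. The small SE of a dim probe set, such as 0.06 for Arg2, therefore does not show how well it reads its mRNA.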
